A study of Homo sapiens with 6 samples.

Results

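The regions described here are those where the BRD8 peak list of 16HBE14o- cells had a peak and neither the BRD8 nor the CTCF list of Calu3 cells did. They were found by pooling the 3 deposited peak lists and joining peaks that overlapped by 1 bp or more into regions. Of 21110 joined regions, 2716 (12.9%) held 16HBE14o- BRD8 peaks only. They made up 28.7% of the 9470 regions with a 16HBE14o- BRD8 peak (95% exact binomial interval 27.8 to 29.6%). They were chosen by the positions of the peaks in the 3 lists, so their number and their lack of Calu3 peaks are a description and carry no test.

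ChIP-seq, the sequencing of DNA recovered with an antibody to a chromatin protein, was done on untreated cells of 2 established human lung epithelial lines. Calu3 is a lung adenocarcinoma line and 16HBE14o- a bronchial epithelial line, and both grew in DMEM with fetal bovine serum. BRD8 was precipitated with the same Active Motif antibody in both lines and CTCF with a Millipore antibody in Calu3 alone, 2 replicates each. Per the series' design text the authors reduced each pair of replicates to 1 list of peaks, and the lists held 9505 (16HBE14o- BRD8), 9769 (Calu3 BRD8) and 16413 (Calu3 CTCF) peaks. No spread between replicates can be given from pooled lists, the sequencing depth behind them is unknown, and the intervals below cover counting error only. CTCF was not mapped in 16HBE14o-, so CTCF may be present in that line at regions counted here as without it.

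BRD8 is a bromodomain protein and a subunit of the NuA4/TIP60 complex, which acetylates histones and exchanges histone variants at promoters, enhancers and sites of DNA damage. CTCF reads a long DNA motif with its zinc fingers and, with cohesin, marks the anchors of chromatin loops and the borders of domains. The peak lists use hg19, and genes, exons, introns and sequences at the regions were not analysed here. Regions are given by position and cytogenetic band, and a gene named beside a band is background on that band, not a gene assigned to the region.

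Each of the 2716 regions of 16HBE14o- alone held 1 peak, and each was 224 bp wide. Their signal, the authors' value per peak, ran from 8.46 to 107 with a median of 24.9 (quartiles 22.0 and 29.6). Signal was not used to choose them. Expressed as a percentile of the 16HBE14o- list, where 100 is the strongest end, the median was 29.4 (quartiles 13.3 and 51.7). The 2649 regions with 16HBE14o- BRD8 and CTCF but no Calu3 BRD8 had a median percentile of 51.3. For the 563 regions with BRD8 in both lines and no CTCF it was 43.8, and for the 3542 regions with BRD8 in both lines and CTCF 68.0. The regions of 16HBE14o- alone thus had the lowest median of these 4 classes, and the quartile ranges of the 4 overlapped. Peaks are not replicates, so no test was made between classes.

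The classes divided the list by signal in different ways. Of the strongest decile of regions 37 of 949 belonged to 16HBE14o- alone, or 3.90% (2.76 to 5.33%), against 28.7% over the whole list. The share rose at each step, to 24.4% in decile 5, 42.8% in decile 8 and 55.9% (52.7 to 59.1%) in the weakest decile, which held 527 of them. Regions with BRD8 in both lines and CTCF ran the other way, from 69.8% of the strongest decile to 15.9% of the weakest. Regions with 16HBE14o- BRD8 and CTCF but no Calu3 BRD8 followed neither course, staying between 22.1% and 32.9% in every decile. BRD8 in both lines without CTCF stayed between 3.58% and 7.51%.

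**Figure D1:**
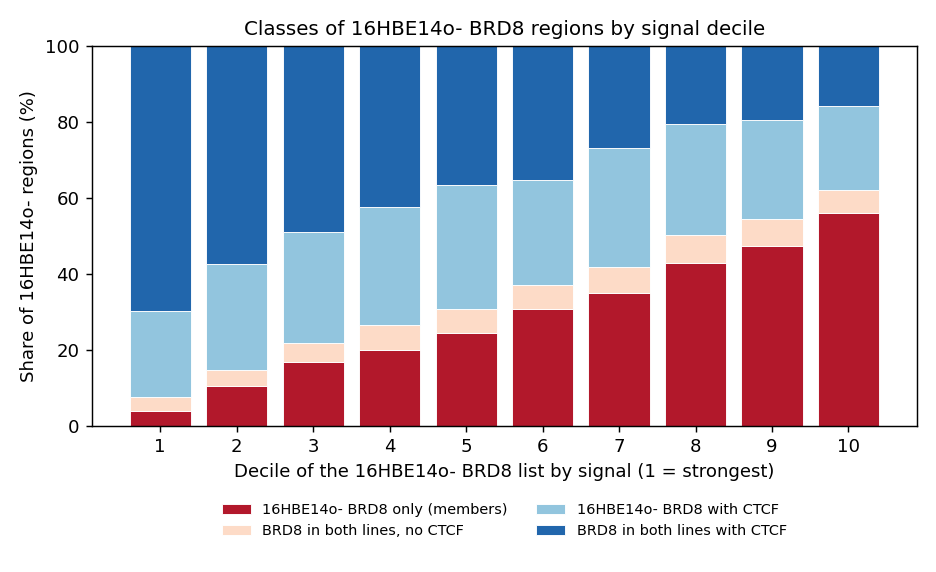
Stacked bars of the share (%) of 16HBE14o- BRD8 regions in each of 4 classes, by decile of the authors' signal (1 is the strongest). Regions of 16HBE14o- alone (dark red, bottom) grow from 3.90% of decile 1 to 55.9% of decile 10, while regions with BRD8 in both lines and CTCF (dark blue, top) shrink from 69.8% to 15.9%.

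The authors' other columns placed these regions in the same way. Their score reached its ceiling of 1000 in 762 of the 2716 (28.1%). It did so in 44.8% of regions with BRD8 in both lines and no CTCF. The share was 51.7% for regions with 16HBE14o- BRD8 and CTCF and 69.8% for regions with all 3 peaks. The number deposited in the q-value column fell below 0 in 43 of all 9470 regions, and 33 of those 43 were regions of 16HBE14o- alone. What a value below 0 means in that column is not given in the sources used here. Strong regions of 16HBE14o- alone did exist: 717 (26.4%) lay in the upper 50% of the list by signal, 42 ranked among the best 1000 and 2 among the best 100.

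The strongest of all lay in 3p12.1 (hg19 chr3:87019019-87019242), with a signal of 107, rank 17 of the 16HBE14o- list. 3p12.1 is the band of VGLL3, a cofactor of TEAD transcription factors. The nearest Calu3 CTCF peak was 113 kb away and the nearest Calu3 BRD8 peak 534 kb away, while another 16HBE14o- BRD8 region lay at 20.9 kb. The strongest region was thus far from any Calu3 peak. The next lay in 17q12 (chr17:37778246-37778469, signal 83.0, rank 83), the band of the receptor tyrosine kinase gene ERBB2. Here a second 16HBE14o- BRD8 region lay 1.32 kb away, and the nearest CTCF and Calu3 BRD8 peaks at 29.2 and 72.4 kb. The third was again on chromosome 3, in 3p11.2 (chr3:87347350-87347573, signal 72.7, rank 145).

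The 7 that followed had signals from 60.6 to 63.4, close to each other. They ranked from 277 to 334 and lay in 20q11.21 (chr20:31044836-31045059), 11q22.3 (chr11:103472079-103472302), 11q22.2 (chr11:102483757-102483980), 6q24.3 (chr6:148785975-148786198), 14q32.12 (chr14:93079489-93079712), 14q23.3 (chr14:65453365-65453588) and 20q13.31 (chr20:55549540-55549763). The one in 20q11.21 lay nearest to a Calu3 peak, 5.09 kb from CTCF and 17.7 kb from BRD8. The one in 11q22.3 lay farthest from both, at 492 kb from CTCF and 660 kb from Calu3 BRD8. Of the 37 regions of 16HBE14o- alone in the strongest decile, 10 were on 11q, 6 on 6q, and 5 each on 14q and 20q. The strongest decile as a whole held more regions on 20q (180) and 14q (99) than on 11q (83) or 6q (40).

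Few regions were near the limit of the rule. Among the 2716, 25 (0.920%) had a Calu3 peak of either protein within 100 bp, 81 (2.98%) within 500 bp and 137 (5.04%) within 1 kb. The 3 closest were in 5q13.2 (chr5:72595016-72595239), 9 bp from a CTCF peak, in 17p13.1 (chr17:8022313-8022536), at 23 bp, and in 17q21.32 (chr17:45973275-45973498), at 26 bp. Their percentiles were 44.3, 2.26 and 33.1. Just outside the rule, the smallest overlaps were 16 bp with a CTCF peak in 20q11.22 (chr20:32274071-32274294, percentile 9.39) and 30 bp with a CTCF peak in 14q32.2 (chr14:100769392-100769615, percentile 19.96). The next, in 15q24.2 (chr15:75660103-75660326, percentile 64.8), met peaks of both Calu3 lists, by at most 32 bp.

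These regions mostly lay well away from the nearest Calu3 peak. The median distance from edge to edge was 50.8 kb to a CTCF peak (quartiles 13.7 and 133 kb) and 101 kb to a Calu3 BRD8 peak (27.8 and 340 kb). CTCF was the nearer of the Calu3 peaks for 1631 of 2716 (60.1%), in a list with more peaks than that of Calu3 BRD8. For 289 regions (10.6%) the nearest Calu3 BRD8 peak was over 1 Mb away. The 2649 regions with 16HBE14o- BRD8 and CTCF, which the rule on Calu3 BRD8 treats alike, had a median distance of 73.5 kb to Calu3 BRD8, and 6.72% of them were over 1 Mb from it. The 563 regions with BRD8 in both lines and no CTCF, treated alike by the rule on CTCF, had a median distance of 33.6 kb to a CTCF peak.

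Signal changed little with that distance. The median percentile was 24.3 for the 137 regions within 1 kb of a Calu3 peak of either protein, 28.9 for the 473 between 1 and 10 kb and 28.8 for the 862 between 10 and 50 kb. It was 32.0 for the 615 between 100 and 500 kb and 25.8 for the 45 beyond 1000 kb. The most isolated region of all was in Xp11.21 (chrX:57945613-57945836), 2773 kb from any other region, followed by 13q31.2 (chr13:87926597-87926820, 2421 kb) and 13q21.31 (chr13:62932437-62932660, 1884 kb). The others were 4q28.3 (chr4:131484799-131485022, 1754 kb) and 11q14.3 (chr11:89938072-89938295, 1660 kb). These 5 had percentiles from 13.6 to 76.5, so isolated regions were found at both weak and moderately strong signal.

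**Figure D2:**
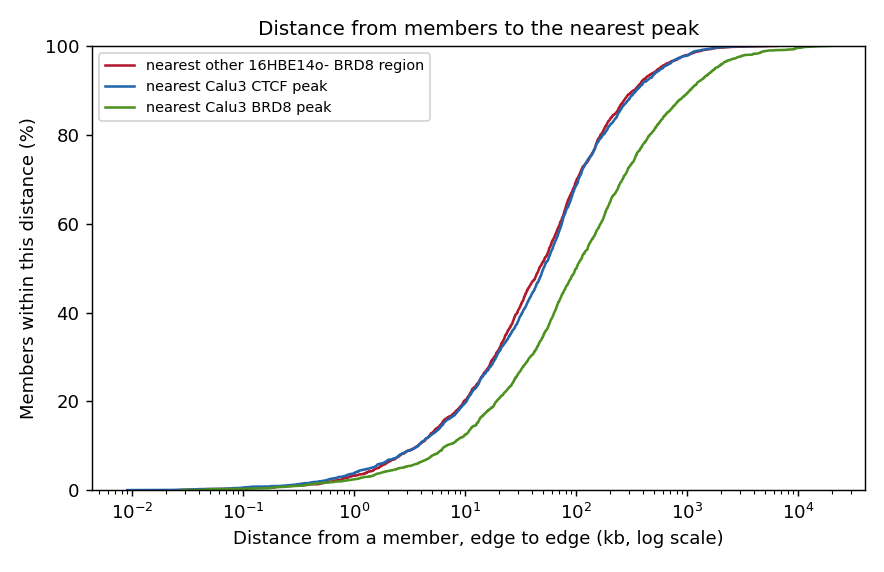
Cumulative share (%) of the 2716 regions of 16HBE14o- alone against the distance (kb, log scale) to the nearest other 16HBE14o- BRD8 region (red), Calu3 CTCF peak (blue) and Calu3 BRD8 peak (green). The red and blue curves lie close together, with medians of 46.4 and 50.8 kb, and the green curve lies to the right, with a median of 101 kb.

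Another 16HBE14o- BRD8 region lay within 25 kb of 989 regions of 16HBE14o- alone, or 36.4% (34.6 to 38.3%), against 39.9% of all 9470 regions (38.9 to 40.9%). The share was 38.2% (36.3 to 40.1%) for regions with 16HBE14o- BRD8 and CTCF and 37.3% (33.3 to 41.4%) for BRD8 in both lines without CTCF, intervals that overlapped it. It was 44.2% (42.5 to 45.8%) for regions with all 3 peaks, whose median distance of 31.0 kb was shorter than the 46.4 kb of regions of 16HBE14o- alone. Of the regions of 16HBE14o- alone, 17.5% (16.1 to 19.0%) had another of their own class within 25 kb. A region of 16HBE14o- alone lay that near to 11.2% (10.0 to 12.4%) of regions with 16HBE14o- BRD8 and CTCF and 11.6% (10.5 to 12.7%) of regions with all 3 peaks. For BRD8 in both lines without CTCF the share was 14.03% (11.3 to 17.2%), which overlapped that of 16HBE14o- alone. In order along a chromosome, the 16HBE14o- region that followed one of 16HBE14o- alone was of the same class in 39.4% of cases (37.6 to 41.3%), and the one that followed a region of any other class in 24.4% (23.3 to 25.4%). Neighbouring peaks share their place in the genome and are not independent.

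When regions of 16HBE14o- alone up to 25 kb apart were joined, 476 of them (17.5%) fell into 213 stretches of 2 or more, and 2240 stood by themselves. The largest stretches held 6. The first was in 11q13.1 (chr11:65339471-65430639), 91.2 kb long, with 8 regions of 16HBE14o- BRD8 in all, 4 of CTCF and 1 of Calu3 BRD8. The second, in 1q21.1 (chr1:145054139-145092620), took 38.5 kb, with 1 region of CTCF and 1 of Calu3 BRD8. The third, in 2p11.1 (chr2:91762829-91808756), took 45.9 kb, with 1 of CTCF and 2 of Calu3 BRD8. The fourth, in 11q13.4 (chr11:71010300-71038421), held 5 in 28.1 kb and no Calu3 peak of either protein. The fifth, in 15q11.1 (chr15:20546228-20561916), held 4 in 15.7 kb and no Calu3 peak either. It had the highest summed signal of the 4 stretches that held 4, and each of the others held a Calu3 BRD8 region. The bands 2p11.1 and 15q11.1 are centromere bands on the hg19 map. Centromere bands held 29 of the 2716 regions (1.07%) and 0.655% of all 16HBE14o- regions. By class they held 0.888% of BRD8 in both lines without CTCF, 0.529% of regions with 16HBE14o- BRD8 and CTCF and 0.395% of regions with all 3 peaks. The regions in the 11q13.4 and 1q21.1 stretches were weak, with highest percentiles of 34.1 and 36.4.

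Longer runs appeared when only the order of the 16HBE14o- regions counted. A run is a series of neighbouring 16HBE14o- regions that all belong to 16HBE14o- alone. There were 1648 runs, of which 61 held 5 or more regions, 404 in all. The longest, 19 regions over 1.70 Mb, reached from 17q12 to 17q21.2 (chr17:37778246-39478880), between the band of ERBB2 and that of the type I keratin genes. Its percentiles ran from 1.06 to 99.1 with a median of 61.6, and 9 regions of the Calu3 lists without 16HBE14o- BRD8 lay inside it. The 1 Mb from 38000001 to 39000000 of chromosome 17 held 13 16HBE14o- regions, and all 13 were of 16HBE14o- alone, although 2 regions of Calu3 BRD8 and 9 of CTCF lay in it too.

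The second run was in 11q22.1 (chr11:99522813-101261585), with 16 regions over 1.74 Mb and no Calu3 peak inside. 11q22.1 is the band of YAP1, the transcriptional coactivator of the Hippo pathway. Of the 26 16HBE14o- regions in 11q22.1, 22 (84.6%, 65.1 to 95.6%) were of 16HBE14o- alone. In the neighbouring 11q22.2, which holds the apoptosis inhibitor genes BIRC2 and BIRC3 and a cluster of matrix metalloproteinase genes, they were 16 of 23 (69.6%, 47.1 to 86.8%). The density in this band of 0.8 Mb was 20 per Mb, against 0.895 per Mb over all arms. Regions with 16HBE14o- BRD8 and CTCF but no Calu3 BRD8 were dense in it too, at 6.25 per Mb against 0.872 over all arms. A run of 9 regions in 11q22.2 (chr11:102261458-102554167) covered 0.293 Mb with no Calu3 peak inside and had a median percentile of 68.7, far above the 14.7 of the run in 11q22.1. The bands differed less: the median was 32.7 for all 16 regions of 16HBE14o- alone in 11q22.2 and 17.4 for the 22 in 11q22.1.

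The remaining runs of 10 or more regions were on 6q, 18p and 20q. On 6q, 13 regions followed each other from 6q21 to 6q22.1 (chr6:114429648-117926682), 11 from 6q25.1 to 6q25.2 (chr6:151656051-153875127) and 10 from 6q22.33 to 6q23.1 (chr6:129573311-131019422). Their median percentiles were 53.9, 21.9 and 54.2. On 18p there were 12 (chr18:3998805-7022564, median percentile 27.7), and on 20q 11 in 20q13.33 (chr20:59828406-60459379, median percentile 16.2). The opposite case was 3q, where 60 16HBE14o- regions in a row over 27.7 Mb (chr3:129118043-156800099) included none of 16HBE14o- alone, beside 259 regions of the Calu3 lists without 16HBE14o- BRD8.

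The share of 16HBE14o- regions that belonged to 16HBE14o- alone varied widely between chromosome arms. On the 40 arms with at least 20 16HBE14o- regions, the interval of the share lay above 28.7% on 12 arms, below it on 12 and held it on 16. It was highest on 6q, with 203 of 354 regions (57.3%, 52.0 to 62.6%). Xp had 64 of 113 (56.6%, 47.0 to 65.9%), 20p 50 of 93 (53.8%, 43.1 to 64.2%), 21q 57 of 115 (49.6%, 40.1 to 59.0%) and 18p 45 of 91 (49.5%, 38.8 to 60.1%). It was lowest on 11p, with 0 of 31, for which the same interval reaches up to 11.2%. 11p was poor in 16HBE14o- regions of any class, with these 31 over 53.7 Mb, against 3.12 per Mb over all arms. 3q had 21 of 250 (8.40%, 5.27 to 12.6%), 7p 21 of 185 (11.4%, 7.17 to 16.8%), 22q 28 of 233 (12.0%, 8.14 to 16.9%) and 19q 35 of 276 (12.7%, 8.99 to 17.2%). The arms at each end were picked by this same share, so the gap between the ends carries no test.

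**Figure D3:**
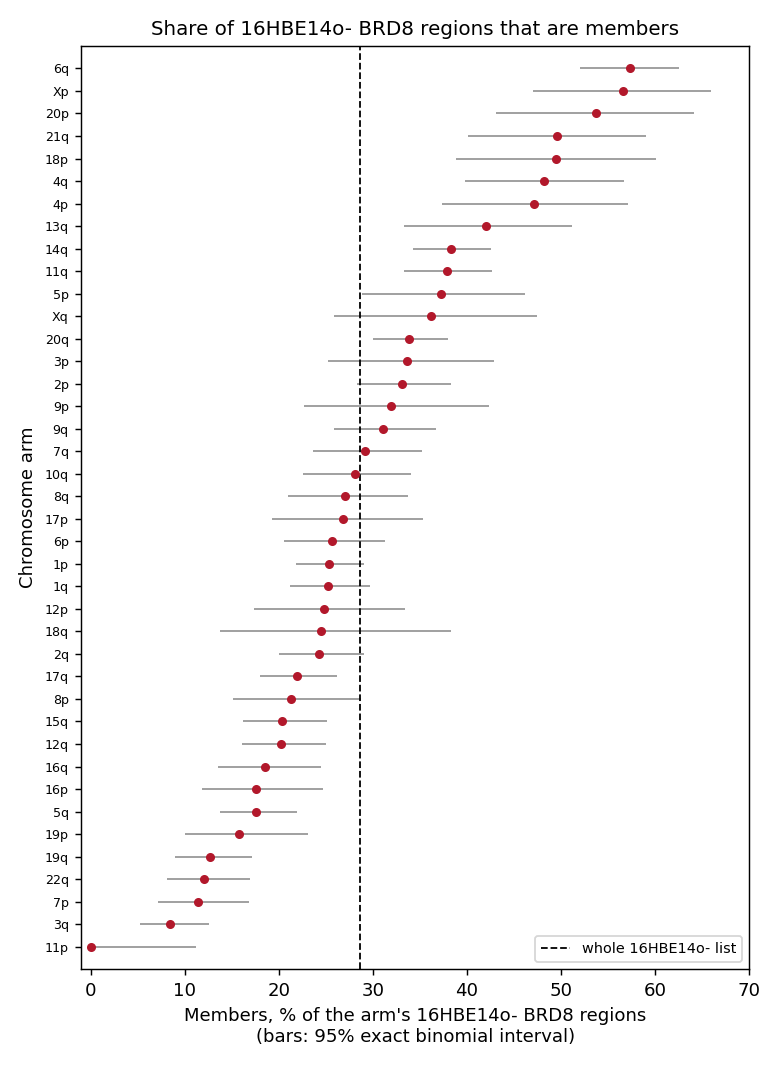
Share (%) of the 16HBE14o- BRD8 regions of each chromosome arm that belong to 16HBE14o- alone ("members"), with 95% exact binomial intervals, for the 40 arms with at least 20 such regions. The dashed line is the share over the whole list, 28.7%, and the arms run from 11p at 0% to 6q at 57.3%.

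The arms with a high share were also poor in Calu3 peaks. The number of regions with a Calu3 peak of either protein was 2.45 per Mb on 6q, 2.13 on Xp, 3.02 on 20p, 3.32 on 21q and 3.72 on 18p, against 6.06 per Mb over all arms. On the arms with a low share it was 8.64 per Mb on 11p, 10.4 on 3q, 11.4 on 7p, 13.1 on 22q and 20.7 on 19q. A 16HBE14o- peak has fewer Calu3 peaks to meet where these are sparse, and the part of this in the shares was not tested. Density per Mb gave another order. Regions of 16HBE14o- alone were densest on 20q, at 5.38 per Mb, followed by 18p (2.62), 14q (2.31), 11q (2.04) and 6q (1.84). 20q was rich in 16HBE14o- regions as a whole, with 564 over 35.5 Mb, against 3.12 per Mb over all arms. Of these 564, 191 (33.9%, 30.0 to 37.9%) were of 16HBE14o- alone, against 28.7% over the whole list, and 237 had all 3 peaks. On 20q, 14q and 11q, the density of Calu3 peaks was above that over all arms (19.9, 6.70 and 8.13 per Mb).

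The 5 arms with most regions of 16HBE14o- alone were 14q (207), 6q (203), 20q (191), 11q (166) and 1p (148). These were 38.3%, 57.3%, 33.9%, 37.9% and 25.3% of the 16HBE14o- regions of each arm, against 28.7% over the whole list. The interval for 1p, 21.8 to 29.0%, held the 28.7%. Together the 5 arms held 33.7% of the regions of 16HBE14o- alone, 26.2% of all 16HBE14o- regions and 14.5% of the length of the chromosomes. The bands with most were 20q13.33, with 58 of its 121 16HBE14o- regions (47.9%), and Xp22.2, with 27 of 38 (71.1%). The 1 Mb window with most was on chromosome 11 from 65000001 to 66000000, with 20 of its 46 16HBE14o- regions. Next came chromosome 20 from 61000001 to 62000000, with 18 of 36, and chromosome 11 from 102000001 to 103000000, with 18 of 26. These 3 windows differed in their other peaks: they held 34, 59 and 7 CTCF regions.

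The mirror class, BRD8 in Calu3 alone without CTCF (1838 regions), was densest on 19q and 3q, at 2.39 and 2.06 per Mb, followed by 20q. On 3q there were 220 regions of Calu3 alone and 21 of 16HBE14o- alone, on 7p 95 and 21, and on 11p 46 and 0. On 6q there were 16 of Calu3 alone and 203 of 16HBE14o- alone, on 18p 1 and 45, and on 14q 34 and 207. On 16q, with 3 and 39, both classes were sparser than over all arms, at 0.0558 and 0.726 per Mb. On 20q both were dense, at 1.94 per Mb for Calu3 alone and 5.38 per Mb for 16HBE14o- alone, against 0.605 and 0.895 over all arms. Regions of 16HBE14o- BRD8 with CTCF and no Calu3 BRD8 were also dense on 20q, at 3.04 per Mb against 0.872 over all arms, and on 14q (1.63) and 18p (1.57), but not on 6q (0.736). On 11p there were 11 such regions.

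**Figure D4:**
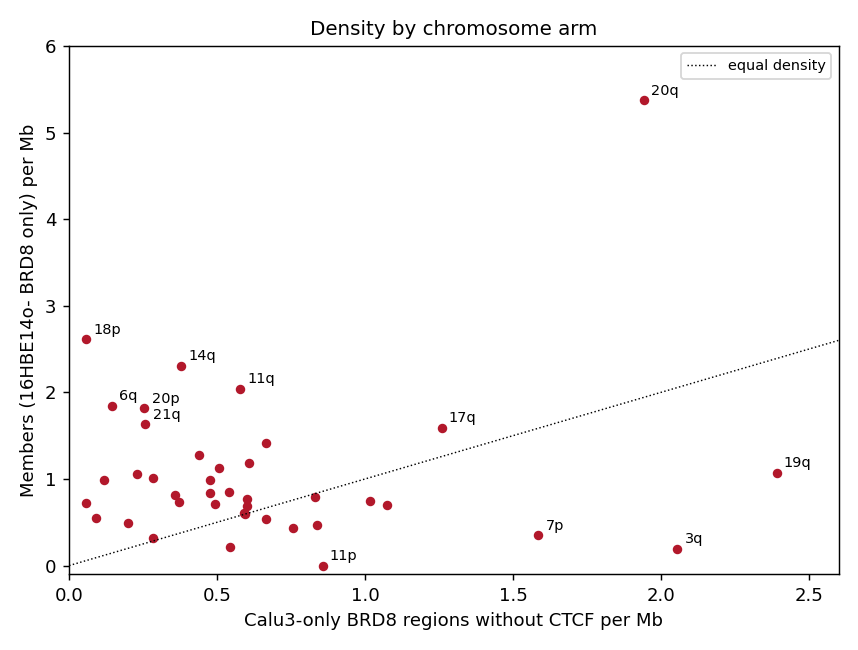
Density per Mb of regions of 16HBE14o- alone ("members", vertical axis) against that of BRD8 regions of Calu3 alone without CTCF (horizontal axis), 1 point per chromosome arm with at least 20 16HBE14o- regions. The dotted line marks equal density. 18p, 14q, 11q, 6q, 20p and 21q lie above the line on the left side, 3q, 7p and 19q below it on the right, and 20q stands apart with 5.38 and 1.94 per Mb.

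Signal was compared within the 4 arms 20q, 6q, 14q and 11q, which held the most regions of 16HBE14o- alone. The 191 regions of 16HBE14o- alone on 20q had a median percentile of 16.2 (quartiles 5.10 and 38.7), and 71 of them (37.2%) were in the weakest decile of the list. The other 373 16HBE14o- regions of 20q had a median percentile of 88.7 (67.3 and 96.6), and 13 (3.49%) were in the weakest decile. The 2 quartile ranges did not overlap. On 6q the medians were 41.2 and 71.5, on 14q 33.3 and 73.3, and on 11q 29.7 and 72.8, with smaller shares in the weakest decile (14.8%, 16.9% and 19.9% of the regions of 16HBE14o- alone).

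Regions of 16HBE14o- alone lay more often in bands that stain darkly with Giemsa, which as a rule are rich in A and T, poor in genes and late to replicate. Of the 2716, 862 (31.7%, 30.0 to 33.5%) lay in the 3 darkest kinds of band, against 25.5% of all 16HBE14o- regions. The share was 24.7% (23.1 to 26.4%) for regions with 16HBE14o- BRD8 and CTCF, 27.2% (23.5 to 31.1%) for BRD8 in both lines without CTCF, 21.1% (19.7 to 22.4%) for regions with all 3 peaks and 26.7% (24.7 to 28.8%) for BRD8 in Calu3 alone. For regions with CTCF alone the share was 28.5% (27.5 to 29.5%), and for Calu3 BRD8 with CTCF and no 16HBE14o- BRD8 27.5% (25.6 to 29.4%). The interval of the regions of 16HBE14o- alone overlapped that of BRD8 in both lines without CTCF, a class of 563 regions, and none of the others. These intervals treat neighbouring peaks as independent, which they are not, so their overlap or lack of it carries no test. These bands make up 43.0% of the length of the chromosomes, so all these classes were under-represented in them. In the darkest bands, 193 of 464 16HBE14o- regions (41.6%, 37.1 to 46.2%) were of 16HBE14o- alone, and in the unstained bands 1507 of 5748 (26.2%, 25.1 to 27.4%). The darkest bands held 2.00 regions with a Calu3 peak per Mb and the unstained bands 8.66, and the part of this in the difference was not tested. In the upper 50% of the 16HBE14o- list by signal the share in dark bands was 32.4% (29.0 to 36.0%) for regions of 16HBE14o- alone and 22.1% (19.9 to 24.4%) for those with CTCF and no Calu3 BRD8. There it was 26.1% (20.7 to 32.2%) for BRD8 in both lines without CTCF, again overlapping the regions of 16HBE14o- alone, and 19.8% (18.3 to 21.5%) for regions with all 3 peaks.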

How the data were processed

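The data were 6 ChIP-seq samples in 3 groups of 2, deposited as 3 peak lists on hg19, per the file headers, each made from both replicates by the irreproducible discovery rate, per the series' design text. The sources used here name no aligner, peak caller, control or threshold. The deposited columns hold the authors' score, the authors' signal, a further score in the q-value column and, as another kind of number, the offset of the summit. The column for p-values, which is -1 in every row, was left out. Signal was ranked within the 16HBE14o- list only. Regions were joined in Python 3.11.15 with numpy 2.4.6 and pandas 2.3.3. Their numbers equalled those of bedtools 2.31.1, and the joining was tested on simulated data. Exact binomial intervals came from scipy 1.17.1, bands from circlize 0.4.16 and figures from matplotlib 3.10.9. No test was made over peaks. Regions named are the 10 strongest, the 5 largest stretches, the 3 on each side of the rule's limit, the 5 most isolated and the 5 arms at each end. Runs, windows and bands were added after their values were seen. Members and comparisons were chosen with earlier results of these data known.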

Additional observations from a re-analysis of the deposited data

How the results depend on the processing

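The number of regions of 16HBE14o- alone stayed between 2564 and 2740 under 7 of 10 alternatives: merging peaks up to 100 bp, 500 bp or 1 kb apart, an overlap of 50 bp or more, peaks set to 200 or 500 bp, and autosomes only. It depended on the length of the lists. With the upper 50% of the 16HBE14o- list there were 716 (15.1% of its regions), with the upper 50% of the Calu3 lists 4355 (45.9%) and with the upper 50% of all 3 lists 1395 (29.4%, close to the 28.7% of the whole lists). Their median percentile was then 32.0, 34.2 and 34.6. The 32.0 and the 34.6 are percentiles within the upper 50% of the 16HBE14o- list, and only the 34.2 is of the whole list. The 32.0 and the 34.6 can therefore not be compared with the percentiles given above. The share with another 16HBE14o- region within 25 kb was 25.6% with the upper 50% of the 16HBE14o- list and 25.02% with the upper 50% of all 3, by construction of shorter lists. Merging peaks up to 1 kb apart gave a share of 27.6% of 16HBE14o- regions and 33.7% with a region within 25 kb. Chosen after the data were seen, the arms were recomputed in the upper 50% of the 16HBE14o- list: 6q had 44.8%, Xp 48.8%, 20p 35.0%, 21q 39.0% and 18p 40.0%, against 15.1% over all arms, and 19q, 22q, 7p, 3q and 11p from 0 to 5.08%. For 11p this was 0 of 9, with an interval up to 33.6% that holds the 15.1%. No paired analysis was possible because each list pools both replicates, and leaving out a replicate was not run for the same reason. Start sites and motifs were planned but not run, as no hg19 genome or annotation was used here.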
